A study of Mus musculus with 6 samples.

Results

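The sodium-potassium pump (Na,K-ATPase) of AML blasts was examined through its 3 beta subunit genes, Atp1b1, Atp1b2 and Atp1b3, out of 53458 genes in the deposited quantifications. They were taken by symbol from the mouse annotation (GENCODE M21, a later release than the Ensembl 94 models used by the authors), and the reads of their 12 annotated transcripts were summed per gene. The genes were selected on the genotype contrast described here, so their differences between genotypes are given as descriptions. Nothing is read from whether a fit over all genes called them. The blasts came from C57BL/6 mice of the genotypes Cebpa-/p30 Tet2+/+ (mice 19, 23 and 24) and Cebpa-/p30 Tet2-/- (mice 5, 7 and 8), with 3 mice per genotype. Both groups therefore carried the p30 allele, which yields only the short C/EBPalpha isoform, opposite a deleted Cebpa allele, and the comparison asks what TET2 loss, the loss of an enzyme that oxidizes 5-methylcytosine, adds to that background. In both groups donor marrow had been transplanted into lethally irradiated, young adult female C57BL/6 J.SJL recipients, and the floxed alleles were deleted afterwards by Mx1-Cre, an interferon-inducible Cre active in hematopoietic and other cells, through poly(I)-poly(C) injection. Cells from the marrow of leukemic recipients were sorted as live, donor-derived (CD45.2+) and negative for CD3, B220 and Ter119, which leaves non-lymphoid, non-erythroid cells rather than a pure blast gate.

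The Na,K-ATPase exports sodium and imports potassium at the expense of ATP and so sets the ion gradients that drive many other transporters. An alpha subunit carries the ATPase cycle and the ion sites, a beta subunit, a glycoprotein with a single membrane span, is needed for folding and delivery of alpha to the plasma membrane, and small FXYD proteins tune the assembled pump. Atp1b1 is the beta isoform of most epithelia, Atp1b2 is known from glia and other neural cells, where it was also named AMOG, and Atp1b3 is broadly expressed and present on leukocytes as CD298.

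The 6 libraries held between 13036643 and 32855343 estimated reads, with mouse 5 the deepest, and 22170 genes had enough reads to be tested. Tet2 itself did not separate the genotypes as a whole gene, with 73.6 to 98.4 CPM (read counts scaled to library size) in Tet2+/+ and 79.4 to 111 CPM in Tet2-/- mice, so the gene total does not check the labels. The share of Tet2 reads assigned to 3 transcripts that lie wholly at the 3′ end of the gene (Tet2-206, Tet2-207 and Tet2-209, picked after their values were seen) was 27.3% to 34.3% in Tet2+/+ and 6.34% to 7.43% in Tet2-/- mice. Markers of blasts and granulocyte progenitors (8 of 8 tested, among them Mpo and Elane) summed to 6645 to 8799 CPM, and all 8 mature neutrophil markers were tested as well, with sums of 10353 to 111181 CPM. In such sorted bulk samples, a change in the number of cells of a type and a change in RNA per cell cannot be told apart. The labels number the samples, which are used here as mouse numbers, but do not say how the mice were bred or processed together. The study gave marrow of each donor to several recipients, and the labels do not say whether mice of a genotype shared a donor. The spread between the mice is therefore all the error that could be measured.

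All 3 genes lie on the minus strand of GRCm38, on different chromosomes. Atp1b1 (ENSMUSG00000026576) spans chr1:164437109-164458355, Atp1b2 (ENSMUSG00000041329) chr11:69599736-69605942 and Atp1b3 (ENSMUSG00000032412) chr9:96332655-96364442. The start regions of Atp1b1, the member whose levels did not overlap between genotypes, and of Atp1b3, the member with the highest level in every mouse, are shown because their makeup differs. Of the 3 members, 2 were matched in the RefSeq promoter sequences, and Atp1b2 was not. Each run holds 300 bases of RefSeq promoter sequence (GRCm38.p6), written 5′ to 3′ on the gene's strand, from 250 bases before to 50 bases after an annotated start. Capitals mark 3 motifs found on either strand, the GC box with the letters GGGCGG, the CCAAT box named for its letters, and a TATA-like run with the letters TATANA.
Atp1b1, chr1:164458306-164458605: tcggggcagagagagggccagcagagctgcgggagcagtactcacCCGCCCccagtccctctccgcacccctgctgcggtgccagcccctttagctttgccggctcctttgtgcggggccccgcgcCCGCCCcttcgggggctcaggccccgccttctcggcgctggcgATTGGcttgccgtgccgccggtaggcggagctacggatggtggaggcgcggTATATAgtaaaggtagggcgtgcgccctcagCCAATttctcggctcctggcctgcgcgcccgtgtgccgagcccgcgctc
Atp1b3, chr9:96364382-96364681: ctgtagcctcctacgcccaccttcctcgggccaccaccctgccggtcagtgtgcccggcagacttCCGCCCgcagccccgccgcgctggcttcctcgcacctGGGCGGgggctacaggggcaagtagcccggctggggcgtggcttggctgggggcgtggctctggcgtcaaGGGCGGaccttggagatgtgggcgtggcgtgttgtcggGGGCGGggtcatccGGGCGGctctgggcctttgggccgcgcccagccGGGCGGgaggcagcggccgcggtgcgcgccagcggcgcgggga
The Atp1b1 window held 2 GC boxes, 2 CCAAT boxes and 1 TATA-like run at position -30 from the start, together with 31 CpG dinucleotides. The Atp1b3 window held 6 GC boxes and 34 CpG, and neither of the other motifs was found in it. Among 32851 promoter windows of this length, 35.7% held a GC box, 37.4% a CCAAT box and 24.7% a TATA-like run, and the median was 7 CpG. A C/EBP-like run with the letters TTGCNNAA, held by 10.8% of windows on either strand, was in neither of them. The GATA motif was searched as the letters AGATAA, held by 11.2% of windows, and it was in neither of them. These matches describe sequence and were not linked to binding or methylation. A second Atp1b3 window in the table, chr9:96363666-96363965, held 39 CpG and no match to any of the 5 motifs.

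Atp1b1 was higher in all 3 Tet2-/- mice than in any Tet2+/+ mouse. The level scaled by TMM library factors was 4.91, 2.36 and 5.70 CPM in Tet2+/+ mice 19, 23 and 24, from 82, 44 and 81 estimated reads. It was 31.1, 18.6 and 9.33 CPM in Tet2-/- mice 5, 7 and 8, from 984, 289 and 172 reads. The genotypes did not overlap, mouse 23 was lowest of all and mouse 5 highest, and the lowest Tet2-/- mouse stood 1.64-fold above the highest Tet2+/+ mouse. Means were 4.32 ± 1.75 CPM (SD, n = 3) in Tet2+/+ and 19.7 ± 10.9 CPM (SD, n = 3) in Tet2-/- mice. The fitted log2 fold change was 2.19 (SE 0.52), a 4.57-fold difference, against a 3.34-fold span among the Tet2-/- mice alone. In edgeR's quasi-likelihood fit over all genes, 0.0451% of the 22170 genes passed a Benjamini-Hochberg adjusted p of 0.05, and none of the 3 members was among them. DESeq2 on the same counts called 2.16% of the 17803 genes to which it gave an adjusted p, Atp1b1 among them, and it also called Atp1b1 on length-scaled counts. Of all genes tested, 6.41% were higher in every Tet2-/- mouse than in every Tet2+/+ mouse, as Atp1b1 was. Since Atp1b1 was chosen from this contrast, nothing is read from these counts.

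**Figure D1:**
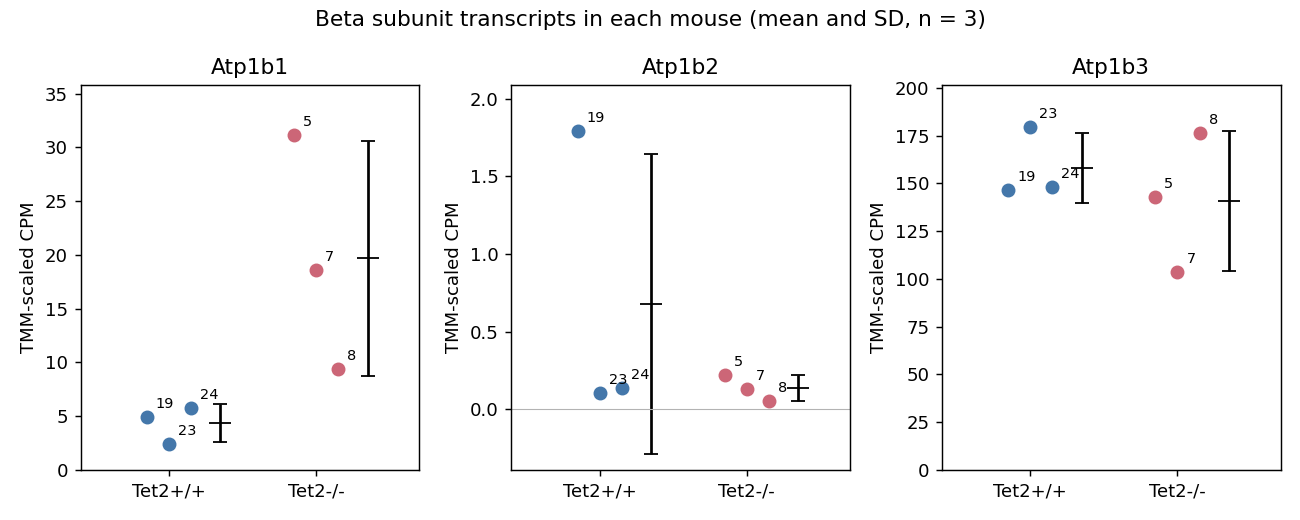
TMM-scaled CPM (y axis, linear, a separate scale in each panel) of Atp1b1, Atp1b2 and Atp1b3 by genotype, with 1 point per mouse labelled by its number and the mean ± SD (n = 3) beside the points. The Tet2-/- points of Atp1b1 (9.33 to 31.1 CPM) lie above the Tet2+/+ points (2.36 to 5.70 CPM), the Atp1b2 panel is set by mouse 19 at 1.79 CPM, and the Atp1b3 genotypes overlap.

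The annotated transcripts of Atp1b1 gave the same order for the full-length messenger. Atp1b1-201, the 2580-base coding transcript, took 86.6% to 100% of the gene's reads in every mouse. Its level in TPM (transcripts scaled to the library total after division by effective length) was 1.03, 0.60 and 1.26 in Tet2+/+ mice 19, 23 and 24 and 6.08, 3.74 and 1.93 in Tet2-/- mice 5, 7 and 8, again without overlap. Atp1b1-203, a shorter coding model of 628 bases, overlapped between genotypes, at 0.23, 0 and 1.02 TPM in Tet2+/+ and 1.06, 0.36 and 1.36 TPM in Tet2-/- mice. The 453-base Atp1b1-204, annotated as a processed transcript without a coding sequence, reached 4.56 TPM in mouse 5 and 3.01 TPM in mouse 7. In the other 4 mice it stood at 0.34 TPM (mouse 19) or at 0, mouse 8 included. Those TPM values rest on at most 68.9 estimated reads, since a short transcript turns few reads into a high TPM, and they raise the gene total in mice 5 and 7. Atp1b1-202, a retained intron model, never exceeded 1.80 reads.

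**Figure D2:**
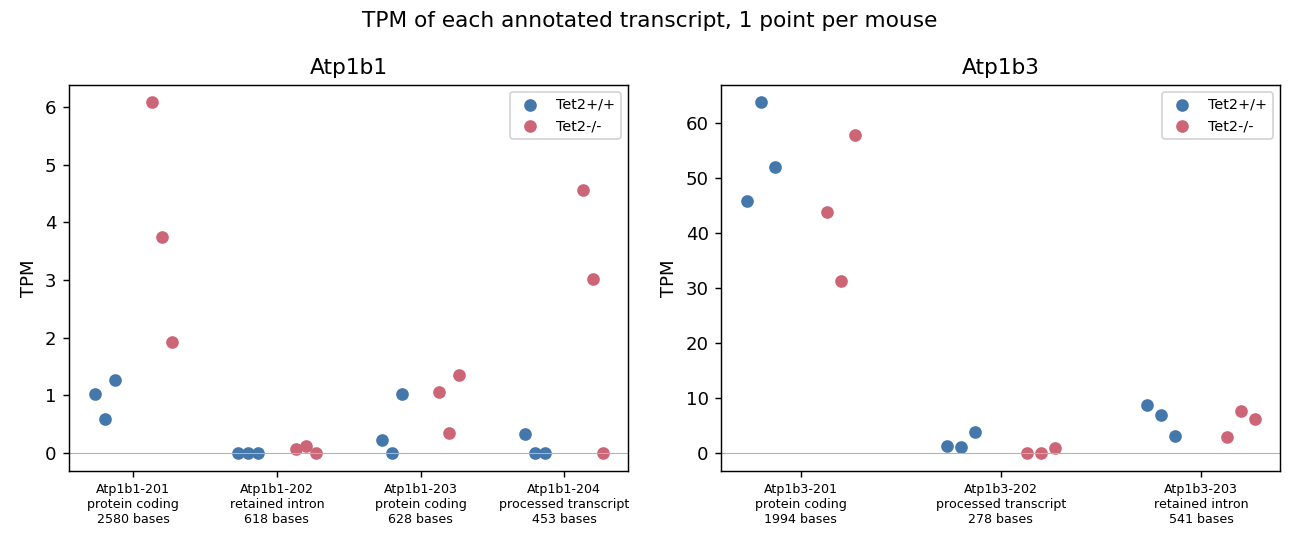
TPM (y axis) of each annotated transcript of Atp1b1 (left) and Atp1b3 (right), with 1 point per mouse, blue for Tet2+/+ and red for Tet2-/-, and the transcript's class and length under its name. Atp1b1-201 separates the genotypes (0.60 to 1.26 against 1.93 to 6.08 TPM), Atp1b1-204 is present in mice 5 and 7, and Atp1b3-201 holds 80.3% to 93.9% of the Atp1b3 TPM.

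The libraries did not keep strand, so reads from overlapping genes cannot be told apart by direction. Nme7, a nucleoside diphosphate kinase family gene on the opposite strand, covers 575 exonic bases of Atp1b1 (18.7% of them). Its level was 5.56, 6.75 and 6.76 CPM in Tet2+/+ and 5.92, 4.24 and 7.33 CPM in Tet2-/- mice, with overlapping genotypes and a log2 fold change of -0.12 (SE 0.31). The nearest expressed genes (1 CPM or more on average) were Blzf1, 129620 bases away at lower coordinates, with a log2 fold change of -0.20 (SE 0.19), and Xcl1, 473289 bases away at higher coordinates, with -1.02 (SE 0.48). Neither passed the adjusted threshold, and Xcl1 did not overlap between genotypes (1.97 to 2.89 CPM in Tet2+/+ and 0.71 to 1.80 CPM in Tet2-/- mice).

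Cell type markers also moved between these mice. The summed CPM of the mature neutrophil list was lowest in mouse 23 (10353), which had the lowest Atp1b1, and highest in mouse 7 (111181), and its genotypes overlapped. In Tet2-/- mouse 8 the sum was 23511, below Tet2+/+ mice 19 (54606) and 24 (38287.5), although mouse 8 had more Atp1b1 than either. All 8 fitted values of that list were positive, as for Atp1b1 (median 0.92 in log2), and none was called. Sums of 2 other lists separated the genotypes in the opposite direction to Atp1b1, as did 7.94% of single genes. All other list sums overlapped between genotypes. Among them were erythroid markers (all 6 fitted values negative), B cell markers (7 negative, 1 positive) and monocyte and macrophage markers (6 positive, 1 negative). Basophil and mast cell markers summed to 299 to 378 CPM in Tet2+/+ and 29.2 to 111 CPM in Tet2-/- mice, with 5 of 7 tested, 4 fitted values negative, 1 positive and none called, and with Prss34 and Fcer1a at 3 reads or fewer in every mouse. Plasma cell markers summed to 144 to 204 CPM in Tet2+/+ and 32.3 to 62.0 CPM in Tet2-/- mice, with all 7 tested, all 7 fitted values negative and none called. The part of these cells in the Atp1b1 difference was not tested.

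Atp1b2 was near the limit of detection. It had 30, 2 and 2 estimated reads in Tet2+/+ mice 19, 23 and 24 and 7, 2 and 1 reads in Tet2-/- mice 5, 7 and 8. Only mice 19 and 5 were above 3 reads, taken here as the floor, which equals 0.095 to 0.21 CPM depending on the library. Mouse 19 measured 1.79 CPM, while the other 5 mice lay between 0.054 and 0.22 CPM. In mouse 19 the reads went to the coding transcript Atp1b2-201 (27.2 reads), in mouse 5 all 7 reads went to the processed transcript Atp1b2-202, and Atp1b2-205 had no reads in any mouse. The fitted log2 fold change of -2.22 (SE 1.18) became 0.19 without mouse 19, so it describes that library and not the genotypes. Mouse 19 also had the highest sum of erythroid markers, at 55.1 CPM against 2.72 to 6.39 CPM in the other mice, although the sort excluded Ter119+ cells. Of the 7 erythroid markers 6 were tested, and only 2 averaged 1 CPM or more. The part of erythroid cells in the Atp1b2 reads of mouse 19 was not tested. The nearest expressed genes, Trp53 at lower coordinates (7863 bases away) and Fxr2 at higher coordinates (27048 bases away), had log2 fold changes of -0.12 (SE 0.27) and 0.24 (SE 0.15), and Fxr2 did not overlap between genotypes (57.7 to 66.1 CPM in Tet2+/+ and 67.0 to 77.3 CPM in Tet2-/- mice).

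Atp1b3 was abundant in every mouse, and its genotypes overlapped. It measured 147, 179 and 148 CPM in Tet2+/+ mice 19, 23 and 24 and 143, 103 and 176 CPM in Tet2-/- mice 5, 7 and 8. Mouse 7 was lowest, while mouse 8 of the same genotype nearly reached mouse 23, the highest. The summed monocyte and macrophage markers (7 of 7 tested, none called) were also lowest in mouse 7, at 313 CPM, and were highest in mouse 8, at 2231 CPM, followed by mouse 23, at 1479 CPM, with 572 to 828 CPM in the other mice. The mature neutrophil sum ran the other way, with 111181 CPM in mouse 7 and 10353 and 23511 CPM in mice 23 and 8. The part of these cells in the Atp1b3 level was not tested. Means were 158 ± 18.6 CPM (SD, n = 3) in Tet2+/+ and 141 ± 36.6 CPM (SD, n = 3) in Tet2-/- mice, and the log2 fold change was -0.17 (SE 0.23), or 0.014 without mouse 7. Almost all reads (96.3% to 99.0%) came from Atp1b3-201, the coding transcript of 1994 bases. It measured 45.8, 63.8 and 52.0 TPM in Tet2+/+ and 43.9, 31.3 and 57.8 TPM in Tet2-/- mice. The retained intron model Atp1b3-203 lay between 2.86 and 8.77 TPM and Atp1b3-202 between 0 and 3.90 TPM, the latter from at most 3.58 reads. The processed pseudogene Gm1848 shares 96.4% identity with 40.4% of Atp1b3-201, but at most 1 read was assigned to it in any mouse. At lower coordinates than Atp1b3, Tfdp2 (a dimer partner of E2F factors, 9009 bases away) had a log2 fold change of -0.72 (SE 0.32), and at higher coordinates the noncoding gene BC043934 (71341 bases away) had -1.85 (SE 0.46). Neither was called, and BC043934 did not overlap between genotypes (2.57 to 6.32 CPM in Tet2+/+ and 1.08 to 1.63 CPM in Tet2-/- mice).

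The order of the 3 members was the same in all 6 mice. As gene TPM, Atp1b3 measured 55.8, 71.9 and 59.0 in Tet2+/+ and 46.8, 39.0 and 65.0 in Tet2-/- mice. Atp1b1 followed at 1.60, 0.60 and 2.29 TPM in Tet2+/+ and 11.8, 7.24 and 3.29 TPM in Tet2-/- mice, and Atp1b2 reached at most 0.35 TPM. On the log2(TPM + 1) scale Atp1b3 exceeded Atp1b1 by 3.71 ± 1.37 (SD, n = 6 mice), Atp1b1 exceeded Atp1b2 by 1.95 ± 1.18, and Atp1b3 exceeded Atp1b2 by 5.67 ± 0.34. Each of the 3 differences had the same sign in 6 of 6 mice, with an adjusted p of 0.0313 in an exact two-sided sign-flip permutation test (n = 6), the smallest p that 6 mice can give. The 3 genes were chosen with these data known, and Atp1b2 was near the limit of detection. The order is therefore read as a description, to which the p adds nothing. The size of the gaps to Atp1b2 depended on the scale, since Atp1b1 exceeded it by 4.03 and Atp1b3 by 8.20 with a pseudocount of 0.1, and by 2.56 and 6.47 as reads per kilobase of effective length. With the TPM of the longest coding transcripts alone, an alternative chosen after seeing the data, the order and the p were the same.

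The composition of the beta pool varied mostly through Atp1b1. Atp1b3 made up 96.6%, 99.0% and 96.2% of the summed beta TPM in Tet2+/+ mice 19, 23 and 24, and 79.9%, 84.2% and 95.1% in Tet2-/- mice 5, 7 and 8. Atp1b1 accounted for 2.77%, 0.82% and 3.73% in Tet2+/+ mice and for 20.1%, 15.6% and 4.82% in Tet2-/- mice. Mouse 8 was close to the Tet2+/+ range, whereas mice 5 and 7 were well above it. With the longest coding transcripts alone the Atp1b1 share was 0.93% to 2.37% in Tet2+/+ and 3.24% to 12.1% in Tet2-/- mice, so part of the share in mice 5 and 7 rests on the short Atp1b1-204. The summed beta level itself overlapped, at 57.7 to 72.6 TPM in Tet2+/+ and 46.3 to 68.3 TPM in Tet2-/- mice. Per Atp1b1 TPM there were 34.9, 121 and 25.8 Atp1b3 TPM in Tet2+/+ mice, and 3.98, 5.38 and 19.7 in Tet2-/- mice. With the longest coding transcripts alone these ratios were 44.4, 107 and 41.2 in Tet2+/+ and 7.23, 8.35 and 29.9 in Tet2-/- mice.

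**Figure D3:**
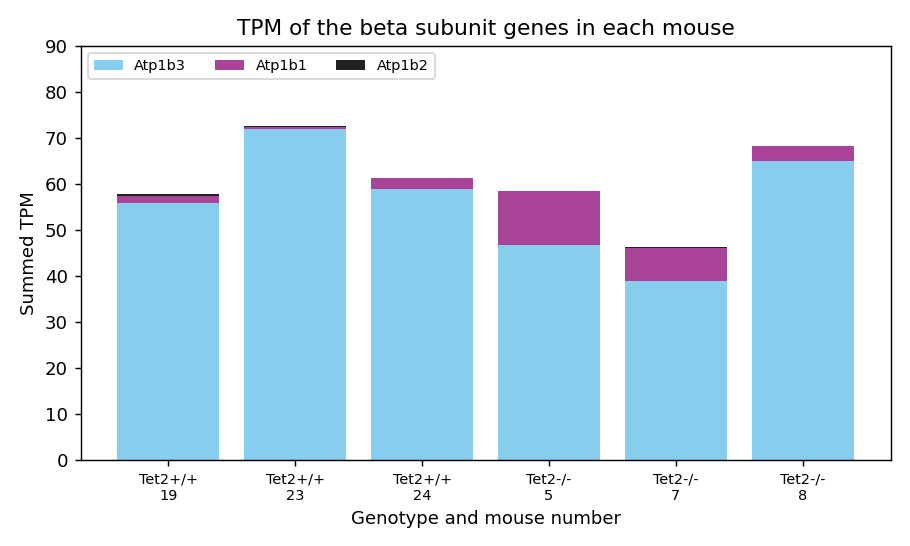
Stacked gene TPM (y axis, linear from 0) of the beta subunit genes in each mouse, with genotype and mouse number on the x axis. Atp1b3 fills 79.9% to 99.0% of each bar, and Atp1b1 is visible mainly in mice 5 and 7.

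The genes most similar to Atp1b1 over the 6 mice, by Pearson's r of log2(CPM + 1) among the 13839 genes that averaged 1 CPM or more, were Bud13 (r = 0.995), Cenpu (0.988), Rgcc (0.987), Gm13453 (0.986) and Wwp2 (0.984). With so many genes and 6 points such values are a description. Rgcc, a regulator of the cell cycle that responds to complement, measured 37.4, 24.7 and 32.4 CPM in Tet2+/+ and 93.4, 75.2 and 44.9 CPM in Tet2-/- mice. Bud13, a splicing factor, ranked the mice as Atp1b1 did, over a far narrower range of 17.2 to 20.8 CPM. The genes most similar to Atp1b3 were Slc39a6, Ttl, Pgm3, Vamp7 and Zfp64, with r between 0.996 and 0.998. Slc39a6, a zinc importer, measured 22.3, 32.1 and 23.5 CPM in Tet2+/+ and 21.9, 13.2 and 31.9 CPM in Tet2-/- mice, with mouse 7 again lowest. Ttl, the tubulin tyrosine ligase, lay between 0.45 CPM in mouse 7 and 6.37 CPM in mouse 23.

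The other X,K-ATPase subunits and regulators listed here were mostly silent. Atp4a, the catalytic subunit of the gastric proton pump, was the only member of its list of 4 that could be tested. It measured 1.26, 1.77 and 0.70 CPM in Tet2+/+ and 0.41, 0.26 and 0.16 CPM in Tet2-/- mice, without overlap, and its log2 fold change of -2.11 (SE 0.58) did not pass (adjusted p = 0.456 by edgeR). Atp1b4, Atp4b and Atp12a had 2, 5 and 0 reads over all libraries. Among 11 FXYD and NKAIN genes, Fxyd5 (dysadherin) was the only gene that averaged 1 CPM or more. Fxyd5 measured 197, 339 and 253 CPM in Tet2+/+ and 315, 267 and 429 CPM in Tet2-/- mice, with overlapping genotypes and a log2 fold change of 0.36 (SE 0.27). Per length its mean level was 608 TPM in Tet2+/+ and 702 TPM in Tet2-/- mice, above that of each beta gene. Fxyd1, Fxyd2, Fxyd7 and Nkain1 were tested from 11 to 59 reads in all, with log2 fold changes of 0.20 to 0.95 and SEs of 0.70 to 1.37.

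The ion transport lists, which also hold calcium pumps, kinases and other regulators, showed no change past the threshold by edgeR. Of 55 genes in 6 lists of ion transport genes, 45 were tested and 0 passed an adjusted p of 0.05 by edgeR, while 1 had a positive and 2 a negative fold change at an unadjusted p under 0.05, against 8.11% of all genes in either direction. DESeq2 on the same counts called 1, Atp2b4, beside the 2.16% of all genes given above, and it called 0 on length-scaled counts. In 7 of the 45 (15.6%) the genotypes did not overlap, 5 of them higher and 2 lower in Tet2-/- mice, against 14.4% of all genes in either direction, 6.41% higher and 7.94% lower. The median log2 fold change of the 45 genes was 0.19, against 0.0016 for all genes tested. Without mouse 8 it was -0.15 (43 list genes tested), against -0.036 for all genes. With any other mouse left out the list median lay between 0.14 and 0.21. Atp2b4, a calcium pump of the plasma membrane, measured 81.2, 105 and 98.5 CPM in Tet2+/+ and 41.6, 42.6 and 57.7 CPM in Tet2-/- mice, with a log2 fold change of -1.01 (SE 0.20, adjusted p = 0.245 by edgeR). At the other end of the P-type ATPase list stood Atp2a2, the SERCA2 calcium pump, with 0.34 (SE 0.25). Among sodium-coupled carriers averaging 1 CPM or more the extremes were Slc8b1, the mitochondrial sodium-calcium exchanger (0.57, SE 0.20), and Slc4a7, a sodium bicarbonate cotransporter (-0.39, SE 0.35). Slc8b1 separated the genotypes, at 110 to 149 CPM in Tet2+/+ and 159 to 219 CPM in Tet2-/- mice. Among chloride cotransporters and volume regulators at such levels the extremes were Lrrc8a, a subunit of the volume-regulated anion channel (0.46, SE 0.22), and Stk39, the SPAK kinase (-1.70, SE 0.73). Among potassium channels, again of those averaging 1 CPM or more, they were Kcnk13 (2.12, SE 1.02) and Kcnq5 (-0.90, SE 0.49), and the Kcnk13 value was set by mouse 8, at 4.72 CPM against 0.26 to 0.79 CPM in the other mice. The Stk39 value was carried by mouse 24, at 3.80 CPM against 0.38 to 1.34 CPM in the other mice, and its genotypes overlapped.

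**Figure D4:**
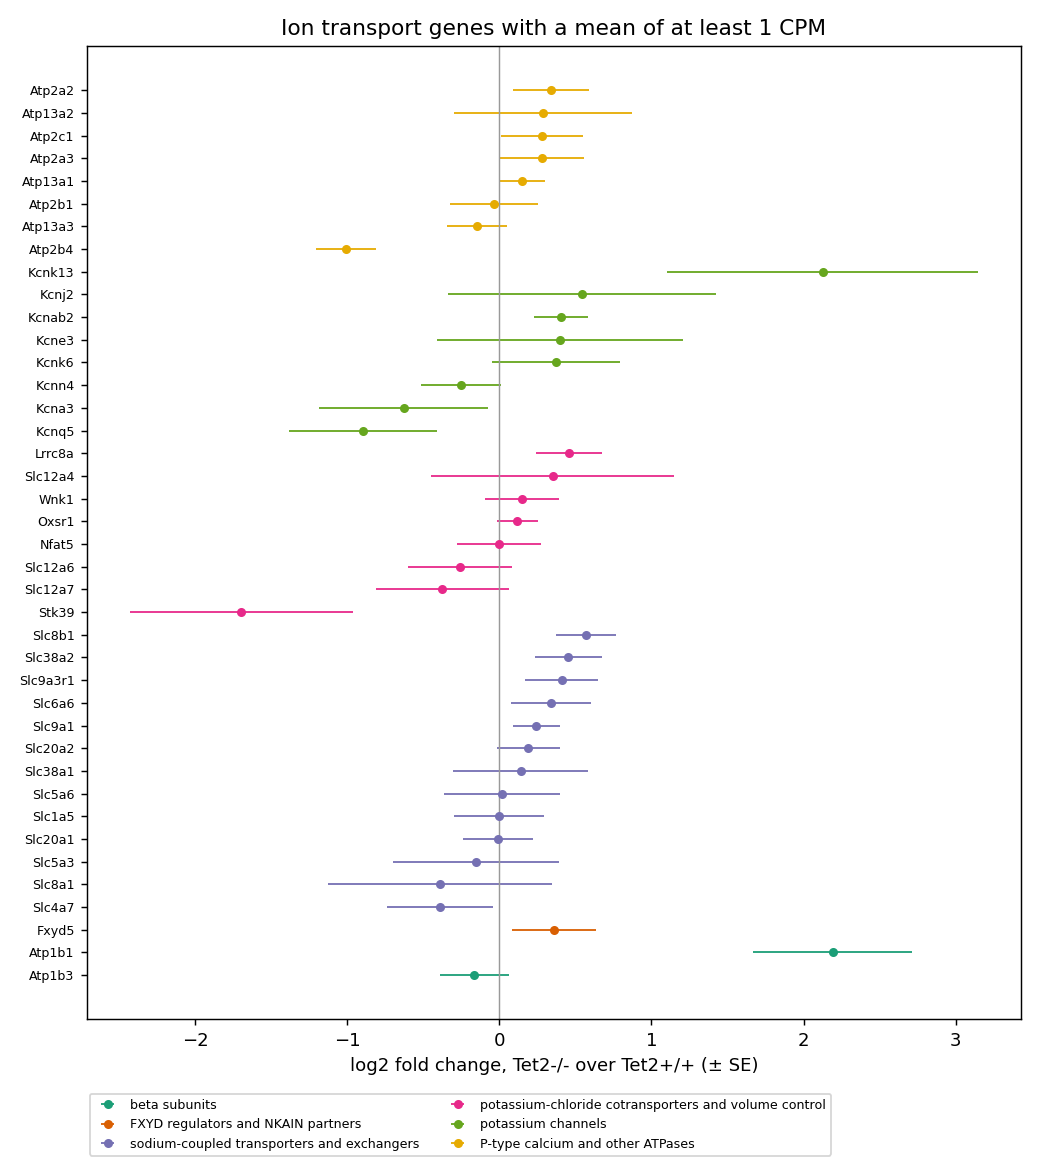
log2 fold change of Tet2-/- over Tet2+/+ (x axis) with its SE (bars, from the edgeR fit on 3 mice per genotype) for ion transport genes averaging 1 CPM or more, coloured by list. Atp1b1 at 2.19 and Atp1b3 at -0.17 are shown for reference, Atp2b4 lies at -1.01, and none of the genes shown passed the adjusted threshold by edgeR. DESeq2 on the same counts called Atp2b4 and Atp1b1, beside 2.16% of all genes to which it gave an adjusted p. Nothing is read from the call of Atp1b1, which was selected on this contrast.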

How the data were processed

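RNA from sorted AML blasts of 6 mice had been sequenced by the authors with an unstranded poly(A) kit. The deposited Salmon 0.12.0 tables give, per the file headers, an estimated count, TPM and effective length (another unit, in bases) per transcript, which the authors made against Ensembl 94 models of GRCm38. Here 136288 transcripts were assigned to genes by GENCODE M21, a later release (135032 of 136176 matched transcripts had the same length), and 112 without a gene (0.0307% to 0.0416% of reads) were left out. Estimated counts were added up per gene and rounded. After a filter that asked for a sum of 10 or more counts normalized to library size, genes were tested with edgeR 4.0.16 (R 4.3.3, TMM, quasi-likelihood, Benjamini-Hochberg, threshold 0.05). DESeq2 1.42.0, length-scaled counts, other scalings and filters and leaving out each mouse were alternatives. Copies were sought with BLAST+ 2.17.0. The script was tested on simulated data.

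The members and gene lists were chosen with earlier results of these data known. Genes were named by rule: the members, all tested genes of the X,K-ATPase and FXYD/NKAIN lists, the extremes of each other list among genes averaging 1 CPM or more, the 5 genes most correlated with a member, and neighbours. A further planned list is not reported here. Levels of different genes were compared in TPM with a pseudocount of 1. Depth was 13036643 to 32855343 estimated reads, and 3 reads were taken as the floor, which covers counting error only.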

Additional observations from a re-analysis of the deposited data

How the results depend on the processing

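Atp1b1 stayed higher in Tet2-/- mice under all 14 alternatives, with log2 fold changes of 1.69 to 2.52 when each mouse was left out. Atp1b1 was selected on this contrast and did not overlap between genotypes, so leaving out a mouse could not reverse its sign. Only the size of the change is described by these values. Atp1b2 moved to -1.54 (edgeR) and -1.53 (DESeq2) with length-scaled counts and ranged from -2.83 to 0.19 over the omissions, the latter without mouse 19. Atp1b3 ranged from -0.36 to 0.014, the latter without mouse 7. Scaling by library size alone moved the median of all genes to -0.17, and Atp1b3 to -0.33, or -0.16 relative to that median. The numbers of all genes called were 385 with DESeq2 on the same counts, 386 with DESeq2 on length-scaled counts, 5 with edgeR on length-scaled counts and 66 without a filter on low counts, against 10. With a mouse left out they ranged from 0 to 7, with 7 without mouse 19, 2 without mouse 23, 1 without mouse 24 and 0 without mouse 5, 7 or 8, where fewer samples entered. Ion transport calls were 1 with DESeq2 on the same counts, 0 with DESeq2 on length-scaled counts and 0 in every omission (range 0 to 0). The cause of the differences between tools was not tested. In TPM, Atp1b3 stayed above Atp1b1 by 3.35 to 4.07, Atp1b1 above Atp1b2 by 1.62 to 2.24 and Atp1b3 above Atp1b2 by 5.59 to 5.76 with a mouse left out, where 5 mice cannot give a p under 0.0625. No paired analysis was possible because the genotypes share no mouse numbers. Depth limits Atp1b2 and Atp1b1-204, which rest on few reads, and 3 mice per genotype cannot give an exact p under 0.10 for a single gene.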
